A study of Mus musculus with 3 samples.

Results

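The 10 genes described here are mouse antiviral genes of the IFIT, viperin and ISG15 group: Ifit1, Ifit2, Ifit3, Ifit3b, Rsad2, Cmpk2, Isg15, Usp18, Oasl1 and Isg20. They were picked by symbol, and all 10 were found among the 55536 annotated genes of the deposited gene tables. The data are 3 libraries of ribosomal RNA-depleted total RNA, made from the cytosolic fraction of primary macrophages grown from the bone marrow of C57BL/6J mice. All 3 cultures had received 100 ng/ml of lipid A, the membrane anchor of bacterial endotoxin and a ligand of Toll-like receptor 4, for 60 min, and 1 µg of RNA entered each library. Age and sex were not recorded in the labels. Neither unstimulated cells nor nuclear RNA were analysed here, and the values below are therefore levels in stimulated cells and not inductions. The libraries are numbered as biological replicates 1 to 3 with a biosample each and 1 shared donor entry for the strain. Separate mice are not stated, so each p-value reflects only how far these 3 samples differ, and that spread may be technical.

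As background, Toll-like receptor 4 signals through the adaptor TRIF to the kinase TBK1 and the transcription factor IRF3, which drives the gene of interferon beta. Secreted interferon beta then acts through its receptor and the transcription factor complex ISGF3 on the interferon-stimulated response element (ISRE) in the promoters of antiviral genes. IRF3 can bind the same kind of element, so several genes of this group can also be switched on without interferon. IFIT proteins bind viral RNA, viperin (Rsad2) makes a chain-terminating nucleotide from CTP, and ISG15 is a ubiquitin-like protein that is attached to other proteins.

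The libraries held 63944236, 71989793 and 69305836 counts on annotated genes (replicates 1 to 3), and all 10 genes passed both filters on low values. All 7 macrophage markers fixed in the lists (Adgre1, Csf1r, Cd68, Lyz2, Mertk, Fcgr1 and Itgam) lay above the median gene. The summed level of the 4 T and NK cell markers was at most 0.03 TPM in any library, and that of the 4 B cell markers at most 0.36 TPM. Of the markers of plasmacytoid dendritic cells, which are strong interferon producers, Siglech, Bcl11a and Ccr9 were at most 0.33 TPM and Tcf4 was between 13.5 and 21.3 TPM. Of the 4 neutrophil markers, Ly6g was at 0, 0 and 0.07 TPM and Ngp between 1.71 and 2.27 TPM, while S100a8 was between 8.65 and 11.3 TPM and S100a9 between 13.9 and 17.8 TPM. In bulk RNA, fewer cells of a type and less RNA per cell cannot be told apart.

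The promoters of 5 of the genes carry the ISRE within the 300 bases searched (250 before and 50 after each RefSeq start site, GRCm38.p6, both strands). A RefSeq promoter was matched for 9 of the 10 genes, with several starts for Ifit2 and Isg20. Usp18 had none and was not searched. The windows below are shown because, with an identical one before Ifit3b, they hold every ISRE match found in the promoters of these 9 genes. Capitals mark the ISRE, and each sequence is written in the direction of transcription.
Ifit1: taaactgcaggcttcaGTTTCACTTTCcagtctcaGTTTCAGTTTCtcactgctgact
Ifit3: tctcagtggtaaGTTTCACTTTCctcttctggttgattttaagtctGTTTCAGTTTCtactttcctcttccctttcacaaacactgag
Isg15: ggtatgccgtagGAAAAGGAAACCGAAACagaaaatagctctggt
Rsad2: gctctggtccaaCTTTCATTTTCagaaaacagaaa

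The windows are chr19:34640768-34640825 (plus strand) for Ifit1, chr19:34583360-34583447 (plus strand) for Ifit3, chr4:156200864-156200908 (minus strand) for Isg15 and chr12:26456551-26456585 (minus strand) for Rsad2. The same 88 bases as in Ifit3 precede Ifit3b at chr19:34607756-34607843 (plus strand), inside a run of 169 identical bases that both promoters share. Ifit1, Ifit3, Ifit3b and Isg15 have 2 ISRE matches each, in Isg15 overlapping, and Rsad2 has 1. The ISRE was found in 1.92% of 32851 RefSeq promoters of this length and at least 2 matches in 0.116%. The shorter core GAAANNGAA, which lies inside every ISRE match, was found in the same 5 genes and in 8.56% of all promoters.

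Matches to 3 other motifs were found in Ifit2, Isg20, Oasl1 and Rsad2. The core TTCNNNGAA, which reads the same on both strands and is bound by STAT dimers, was found in Ifit2 and Isg20 and in 8.30% of all promoters. The NF-kB motif was found in Ifit2, Isg20 and Oasl1 and in 8.46% of all promoters, and in Ifit2 it overlaps TTCNNNGAA. TATAAA was found in Rsad2, on the opposite strand at 10 to 5 bases before the start, and in 13.6% of all promoters. None of the motifs searched was found in the Cmpk2 window. A match is a string of letters and not evidence of binding, and the absence of one concerns these windows alone.

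**Figure D1:**
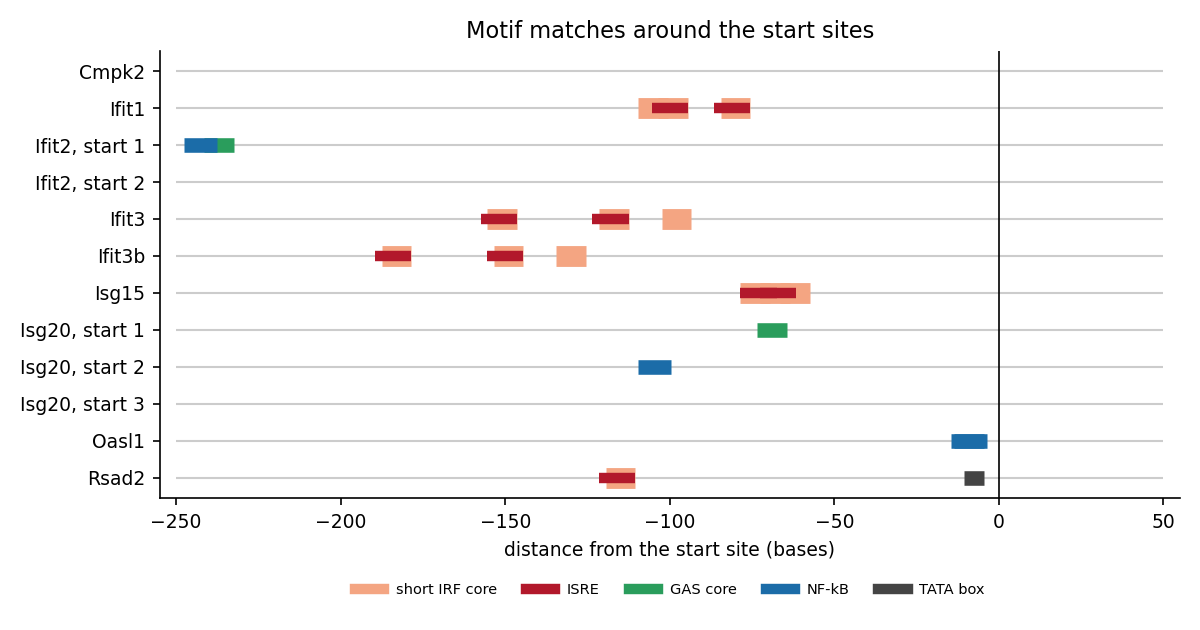
Motif matches in the 12 RefSeq promoters of 9 genes, by distance from the start site in bases; each bar spans 1 match on either strand, and the ISRE bars are drawn over the shorter IRF core. The ISRE matches of Ifit1, Ifit3, Ifit3b, Isg15 and Rsad2 all lie before the start site, while the 7 other promoters have none.

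Expression was read as TPM, the length-scaled share of a gene among all transcripts of its library. The TPM printed below, with their means and SDs, are not scaled between libraries. The median gene itself stood at 9.08, 5.76 and 6.86 TPM in replicates 1, 2 and 3, and the SDs include this shift. Each gene's level was therefore set against the median of its own library, as log2(TPM + 0.1) minus that of the median over 9123 protein-coding genes with a mean of at least 1 TPM. A gene was called above or below where limma's test against a band of 2-fold around the median gene gave an adjusted p under 0.05. Of the 10 genes, 6 were above and 0 below, beside 26.3% above and 24.5% below among all 9123 genes tested. The 6 were Rsad2, Ifit2, Isg15, Ifit3, Ifit1 and Cmpk2, while Oasl1, Usp18, Ifit3b and Isg20 were not called.

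**Figure D2:**
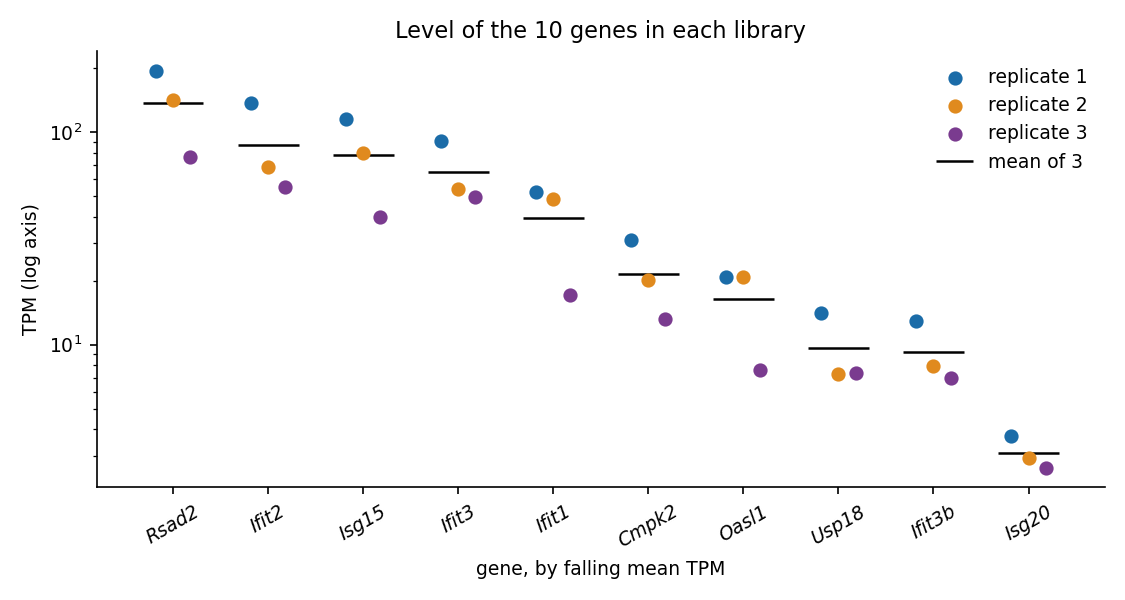
TPM of the 10 genes on a log axis, ordered by mean; points are the 3 libraries and lines their means. Means span from 138 TPM for Rsad2 to 3.10 TPM for Isg20. Replicate 3 is the lowest point of 9 genes, with Usp18 lowest in replicate 2. TPM are not scaled between libraries, and after scaling by library Usp18 too was lowest in replicate 3.

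The IFIT genes, whose products bind viral RNA, lie side by side over 99.3 kb of chromosome 19. Ifit2 (chr19:34550694-34576419), the proapoptotic member, stood at 137, 68.6 and 55.5 TPM in replicates 1, 2 and 3, a mean of 87.0 ± 43.8 (SD, n = 3). Ifit3 (chr19:34583531-34588731), whose human counterpart stabilises IFIT1, stood at 90.5, 53.9 and 49.8 TPM, or 64.7 ± 22.4 (SD, n = 3). Both were high in each library: Ifit2 lay 3.48 ± 0.16 (SE) log2 units above the median gene with a limma adjusted p of 1.2e-05, and Ifit3 lay 3.12 ± 0.10 above it with 3.1e-06.

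Ifit1 (chr19:34640871-34650009), the sensor of RNA caps that lack a methyl group, stood at 52.4, 48.5 and 17.1 TPM, or 39.3 ± 19.4 (SD, n = 3). Its value in replicate 3 was the lowest, also after scaling by library. Its level was 2.29 ± 0.30 (SE) log2 units above the median gene, a 4.89-fold difference with a limma adjusted p of 0.0054. Ifit3b (chr19:34607970-34613401), the near copy of Ifit3, was much lower at 12.9, 7.97 and 6.96 TPM, or 9.27 ± 3.16 (SD, n = 3). With a level of 0.33 ± 0.10 (SE) it lay inside the 2-fold band, and it moved to -0.11 with the kallisto-style tables and to -0.60 where the median was taken over genes of at least 5 TPM.

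Ifit3 exceeded Ifit3b by nearly the same ratio in every library. The differences of log2(TPM + 0.1) were 2.80, 2.74 and 2.82, a mean of 2.79 ± 0.04 (SD, n = 3) or 6.91-fold. The sequences of the pair overlap heavily: 61.8% of the 31-base stretches of the Ifit3 transcript and 55.5% of those of Ifit3b recur in another gene, in both cases mostly in the other one of the pair. Reads from these stretches had to be divided by the quantifier, so each gene's value is uncertain to that extent. The deposited credibility intervals of the TPM did not meet, at 87.7 to 90.9 for Ifit3 against 12.1 to 13.3 for Ifit3b in replicate 1. Ifit1 shares 10.7% of its stretches with other genes, most of them with Ifit1bl2, and Ifit2 shares none.

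The paralogs that lie between these genes were far lower. Ifit1bl1, between Ifit3 and Ifit3b, stood at 3.07, 1.28 and 1.27 TPM, and it was called below the median gene at -1.99 ± 0.15 (SE; limma adjusted p = 7.4e-04). Ifit1bl2, between Ifit3b and Ifit1, stood at 0.05, 0.04 and 0.06 TPM. A processed pseudogene there, AC016791.2, had 2 counts in replicate 1 and 0 in the other libraries. Along the cluster the order is thus Ifit2, Ifit3, Ifit1bl1, Ifit3b, Ifit1bl2 and Ifit1, with the lowest genes on both sides of Ifit3b.

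Rsad2, which encodes viperin, was the most abundant of the 10 genes. It stood at 195, 141 and 76.5 TPM, or 138 ± 59.3 (SD, n = 3), and lay 4.15 ± 0.21 (SE) log2 units above the median gene, a 17.8-fold difference with a limma adjusted p of 1.3e-05. Cmpk2, a mitochondrial kinase of UMP and CMP, stood at 31.1, 20.3 and 13.3 TPM, or 21.5 ± 8.98 (SD, n = 3). Rsad2 was the higher of the pair in each library. Cmpk2 was called above at 1.50 ± 0.17 (SE; limma adjusted p = 0.025), but limma's call ended without replicate 1 (adjusted p = 0.13), without replicate 2 (adjusted p = 0.099), with the kallisto-style tables (adjusted p = 0.38) and against the median of genes of at least 5 TPM.

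Rsad2 and Cmpk2 are neighbours transcribed away from each other, Rsad2 at chr12:26442746-26456452 on the minus strand and Cmpk2 at chr12:26469204-26479837 on the plus strand, with 12.8 kb between their starts. Rsad2 exceeded Cmpk2 by 2.64, 2.79 and 2.52 on the log2(TPM + 0.1) scale, a mean of 2.65 ± 0.14 (SD, n = 3) or 6.29-fold.

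Isg15 (chr4:156199424-156200818, minus strand), the ubiquitin-like modifier, stood at 115, 80.1 and 39.9 TPM, or 78.4 ± 37.6 (SD, n = 3). It lay 3.32 ± 0.24 (SE) log2 units above the median gene with a limma adjusted p of 9.2e-05. Of the 31-base stretches of its short transcript, 12.8% recur elsewhere, mostly in AC151275.1. Usp18 (chr6:121245906-121270917), the protease that removes ISG15 and dampens signalling at the interferon receptor, was much lower at 14.1, 7.28 and 7.39 TPM, or 9.60 ± 3.92 (SD, n = 3). Usp18 lay inside the band at 0.36 ± 0.10 (SE), and at -0.07 with the kallisto-style tables. Isg15 exceeded Usp18 by 3.02, 3.44 and 2.42 log2 units, a mean of 2.96 ± 0.51 (SD, n = 3). By its SD this ratio was less even than those of Ifit3 over Ifit3b and of Rsad2 over Cmpk2. Reads shared by Ifit3 and Ifit3b were divided by the quantifier, however. The SD was close to that of Ifit2 over Ifit1 in the IFIT cluster (1.19 ± 0.62, SD, n = 3). These SDs rest on 3 values each and were not tested against each other.

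Oasl1 and Isg20 act on RNA or its translation. Oasl1 (chr5:114923240-114937915), which in mice limits the translation of Irf7 mRNA, stood at 20.9, 20.8 and 7.60 TPM, or 16.4 ± 7.66 (SD, n = 3). After scaling by library, replicate 2 was its highest and replicate 3 its lowest. Its level of 1.06 ± 0.29 (SE) was not called (limma adjusted p = 0.74), while without replicate 3 it was 1.52 and was called (limma adjusted p = 0.014). Isg20 (chr7:78913424-78920396), a nuclease that degrades single-stranded RNA, stood at 3.71, 2.94 and 2.64 TPM, or 3.10 ± 0.552 (SD, n = 3). It was the only one of the 10 with a level under the median gene, -1.19 ± 0.09 (SE; limma adjusted p = 0.080), and it was called below without replicate 2 (adjusted p = 0.023) and with the kallisto-style tables (adjusted p = 4.3e-04).

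The order of the levels by mean TPM was Rsad2, Ifit2, Isg15, Ifit3, Ifit1, Cmpk2, Oasl1, Usp18, Ifit3b and Isg20. Of the 9 pairs of neighbours in this order, 4 differed in the same direction in 3 of 3 libraries by more than the SD of their differences. These were Rsad2 over Ifit2 (0.67 ± 0.32, SD, n = 3), Ifit3 over Ifit1 (0.83 ± 0.69), Ifit1 over Cmpk2 (0.79 ± 0.45) and Ifit3b over Isg20 (1.51 ± 0.22), all as log2(TPM + 0.1). The other 5 pairs did not differ beyond their spread: Ifit2 and Isg15, Isg15 and Ifit3, Cmpk2 and Oasl1, Oasl1 and Usp18, and Usp18 and Ifit3b. With 3 libraries the exact two-sided sign-flip permutation test cannot go below p = 0.25, and over the 14 pairs compared its smallest adjusted p was 0.35. Where a replicate was left out, fewer libraries had to agree. Of the 9 pairs, 3 then met the rule without replicate 1, 7 without replicate 2 and 6 without replicate 3.

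All 10 genes were lowest in replicate 3 once counts were scaled by library with TMM factors, beside 33.9% of the 13026 genes fitted. Ifit1 stood at 176.3, 256.1 and 75.9 CPM (counts scaled by library, not by length) in replicates 1, 2 and 3, so that replicate 3 was 2.80-fold lower than the mean of the other 2 on the log2 scale. Oasl1 stood at 49.1, 79.4 and 22.7 CPM, 2.75-fold lower. Isg15 stood at 86.7, 94.8 and 39.2 CPM, 2.31-fold lower.

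Rsad2 was the fourth gene past 2-fold, at 957, 1089 and 497 CPM, or 2.06-fold lower in replicate 3. Among all genes fitted, 0.729% were at least 2-fold lower there. Cmpk2 (1.78-fold) and Ifit2 (1.66-fold) followed. Ifit3b, Ifit3 and Usp18 differed by 1.38-fold, 1.33-fold and 1.30-fold, and Isg20 by 1.17-fold. The contrast of replicate 3 with the other libraries was chosen after the values had been seen, so it is a description with no test.

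**Figure D3:**
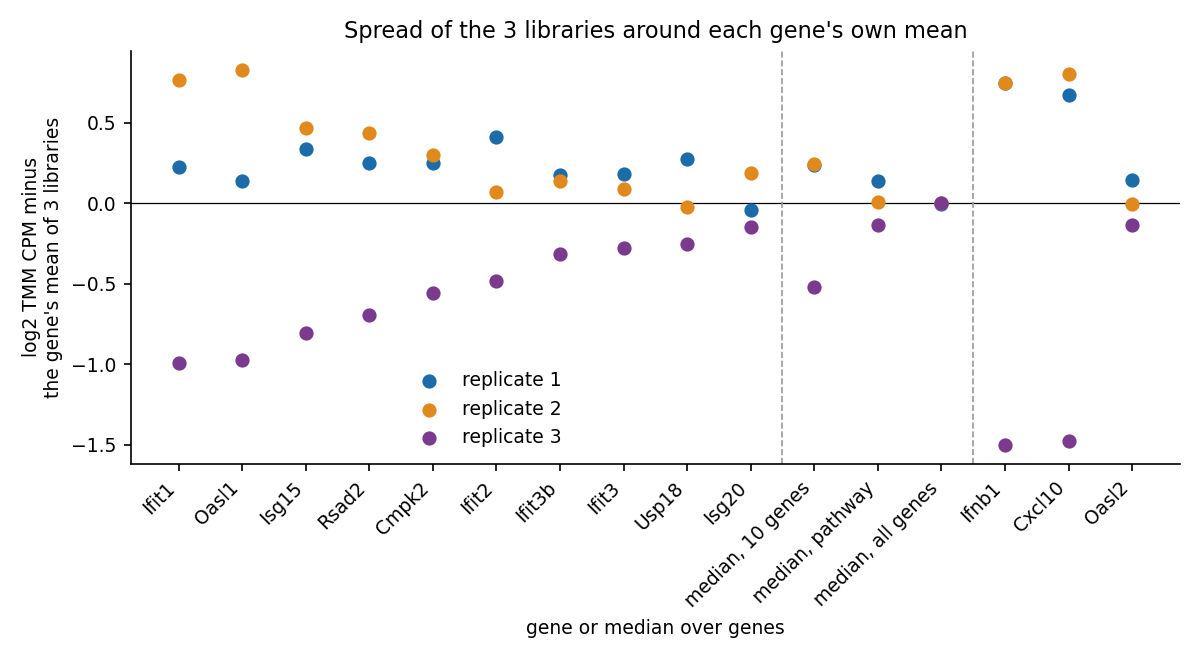
Log2 TMM CPM of each library minus the gene's own mean of 3, for the 10 genes, for medians over the 10 genes, the pathway genes and all genes fitted, and for Ifnb1, Cxcl10 and Oasl2; replicates have no order. Replicate 3 is the lowest point of each of the 10 genes, from Ifit1 at -0.99 to Isg20 at -0.15, and the median over all genes is near 0 in each library.

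The median difference of replicate 3 from the other 2 was -0.78 log2 units over the 10 genes, -0.20 over 64 pathway genes and 0.00 over all genes fitted. Among the pathway genes the interferon beta gene differed most, although the lowest value over all genes fitted was -2.86. Ifnb1 stood at 52.7, 33.5 and 8.47 TPM and was 2.25 log2 units lower in replicate 3. Cxcl10, a chemokine gene driven by interferon and NF-kB, stood at 297, 208 and 51.3 TPM and was 2.22 lower. By contrast Oasl2 differed by 0.21. Of the 7 macrophage markers 0 were lowest in replicate 3. They were not level between libraries either, with differences of replicate 3 from -0.19 log2 units for Lyz2 to 0.63 for Itgam. The neutrophil marker S100a9 stood at 7.48, 10.5 and 7.48 CPM and S100a8 at 4.32, 6.26 and 4.24 CPM, so that replicate 1 was about as low as replicate 3. The part of the macrophage and neutrophil markers in the difference of replicate 3 was not tested.

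The spread of the 10 genes between libraries was set beside that of all genes. Their median biological coefficient of variation (BCV, the relative spread of a gene's counts beyond counting noise, as edgeR estimates it) was 0.210, beside 0.122 over all genes fitted. With no filter beyond 1 count this order turned, at 0.206 over the 10 genes and 0.285 over 22361 genes. Oasl1 (0.370) and Ifit1 (0.363) had the highest values and Ifit3 (0.134) the lowest. Without replicate 3 the median over the 10 genes was 0.116, beside 0.120 over all genes. With 3 libraries these values are drawn towards a common trend, so their order is approximate.

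The library with the highest TMM CPM was not the same for every gene. Rsad2, Isg15, Ifit1, Cmpk2, Oasl1 and Isg20 were highest in replicate 2, while Ifit2, Ifit3, Ifit3b and Usp18 were highest in replicate 1. Among all 13026 genes fitted the split was also near even, with 4451 highest in replicate 2 and 4151 in replicate 1. The contrast was widest in Oasl1 (centred log2 CPM of 0.14 in replicate 1 and 0.83 in replicate 2) and Ifit1 (0.23 and 0.76). In Ifit2 the same values were 0.41 and 0.07. Some of the order rests on near ties, as in Cmpk2 (0.25 and 0.30), Ifit3b (0.18 and 0.14) and Ifit3 (0.19 and 0.09), and none of it was tested.

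The genes nearest to the median profile of the group were sought among 3649 other protein-coding genes of at least 10 TPM, by Euclidean distance of centred log2 CPM over the 3 libraries. They were Ccrl2 (0.0236), Tmem39a (0.0510), Cxcl1 (0.0530), Dusp2 (0.0559) and Klhl25 (0.0610). Ccrl2, an atypical chemoattractant receptor, stood at 256.5, 160.1 and 115.7 TPM, and the chemokine gene Cxcl1 at 403, 260 and 190 TPM. The distances of the 10 genes themselves ran from 0.0667 for Cmpk2 to 0.747 for Oasl1. A profile of 3 values allows no test of this likeness.

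The surrounding pathway was read from 8 lists of 64 annotated genes, of which 59 could be tested. Of these, 33 were above the median gene, 2 below and 24 not called, beside the 26.3% above and 24.5% below given for all genes. The genes below were Ifit1bl1 and Socs1, the latter a feedback inhibitor of interferon signalling at 1.26, 1.18 and 1.32 TPM (-2.41 ± 0.12, SE; limma adjusted p = 4.5e-05). The count above was 16 where the median was taken over genes of at least 5 TPM and was 51 with no minimum. Among all genes tested, 1254 of 5620 were above at 5 TPM and 4986 of 14388 with no minimum. Each minimum also changes which pathway genes are tested, so the 16 and the 51 are not out of 59.

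**Figure D4:**
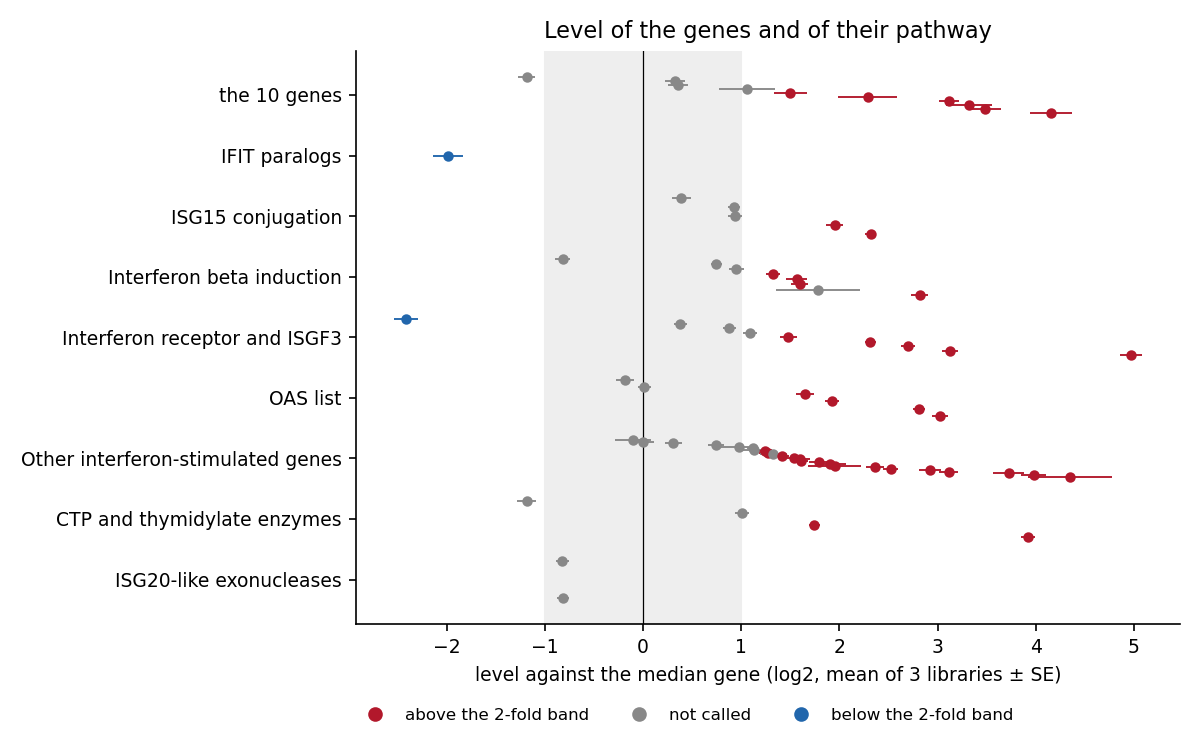
Level against the median gene (log2, mean of 3 libraries, bars are SE) of the 10 genes and of the tested genes of each pathway list; the grey area is the 2-fold band. Rsad2 at 4.15 is the highest of the 10 genes, and Ifit1bl1 and Socs1 are the 2 points called below.

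Among the machinery that attaches ISG15, 2 of 5 genes were above. Trim25, a ligase for ISG15 and ubiquitin, stood at 45.2, 29.4 and 34.6 TPM, and the conjugating enzyme gene Ube2l6 at 40.8, 22.5 and 23.4 TPM. The activating enzyme gene Uba7 stood at 19.5, 10.1 and 13.0 TPM and was not called. By TMM CPM (75.4, 65.5 and 56.4), though not by TPM, Ube2l6 was lowest in replicate 3, as Isg15 was. The difference was only 0.32 log2 units, against 1.21 for Isg15.

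Upstream of interferon, 4 of 8 genes were above. Irf7, the transcription factor whose mRNA Oasl1 holds back, stood at 66.2, 46.1 and 42.6 TPM, and the receptor gene Tlr4 at 30.5, 14.8 and 22.5 TPM. Ifnb1 was not called (1.78 ± 0.43, SE; limma adjusted p = 0.11). Of the interferon receptor and ISGF3 list, 5 of 9 were above, with the receptor gene Ifnar2 at 63.3, 34.9 and 45.8 TPM and with the feedback inhibitor gene Socs3 at 299, 215 and 179 TPM.

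Of the list that holds the relatives of Oasl1, 4 of 6 tested genes were above. Oasl2, which carries ubiquitin-like domains as Oasl1 does, stood at 84.2, 46.5 and 51.4 TPM and so was well above Oasl1 in each library. Oas1a, which makes a second messenger from ATP when it binds double-stranded RNA, stood at 38.6, 21.9 and 24.1 TPM. Among 24 other interferon-stimulated genes tested, 16 were above and 0 below, led by Cxcl10, by Bst2 (tetherin) at 187, 83.2 and 93.7 TPM and by Ccl5 at 122, 104 and 67.5 TPM.

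Around viperin and Cmpk2, 2 of 4 tested enzymes of CTP and thymidylate metabolism were above. Samhd1, which degrades deoxynucleotides, stood at 142, 89.5 and 102 TPM, and Cmpk1, the cytosolic counterpart of Cmpk2, at 30.6, 19.6 and 23.1 TPM, close to Cmpk2 in replicates 1 and 2. The CTP synthase gene Ctps2 stood at 20.6, 10.5 and 13.7 TPM. The relatives of Isg20 were low as Isg20 was: Isg20l2 stood at 5.0, 3.4 and 3.73 TPM and Aen at 4.65, 3.44 and 3.90 TPM, neither of them called.

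At transcript level, Ifit1, Ifit3, Ifit3b and Isg15 have 1 annotated transcript each, which holds all of the gene's TPM by definition. Counting these 4, the main transcript held a mean of over 90% of the gene's TPM in 8 of the 10 genes. The exceptions were Oasl1 and Isg20. In the kallisto-style tables the mean share was 92.4% for Isg20-201, 81.3% for Oasl1-202 and 88.6% for Cmpk2-201. Oasl1-202 held 72.1, 72.6 and 70.7% of Oasl1 in replicates 1, 2 and 3. The noncoding Oasl1-205 held 11.8, 11.4 and 18.6%, but 0, 0 and 2.24% in the kallisto-style tables, so its share depends on the quantifier.

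Isg20-201 held 87.2, 70.5 and 87.9% of Isg20, and the shorter Isg20-203 held 9.24, 27.8 and 6.61%. In replicate 2 the second value rests on 77.2 estimated counts, and the kallisto-style table puts it at 0.0479% there. For Cmpk2 the main transcript Cmpk2-201 held 92.1, 98.1 and 97.9%. Its 2 retained-intron transcripts together held 7.86, 1.88 and 2.13%, and 22.5, 5.55 and 6.17% in the kallisto-style tables. The sum was highest in replicate 1 with both quantifiers. Cmpk2-204 held 6.57% in replicate 1, or 5.83% in the kallisto-style table. The 330-base Cmpk2-203 held 1.29% there on 4.6 estimated counts but 16.6% in the kallisto-style table, so its share depends on the quantifier. For Rsad2 the main transcript held 98.6, 99.6 and 99.3%, or 85.9, 94.8 and 94.1% in the kallisto-style tables. The 430-base Rsad2-203 held 0.09, 0.03 and 0.24%, but 10.1, 3.84 and 4.26% in the kallisto-style tables. The transcript annotated for nonsense-mediated decay held 1.34, 0.41 and 0.49%, again highest in replicate 1.

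**Figure D5:**
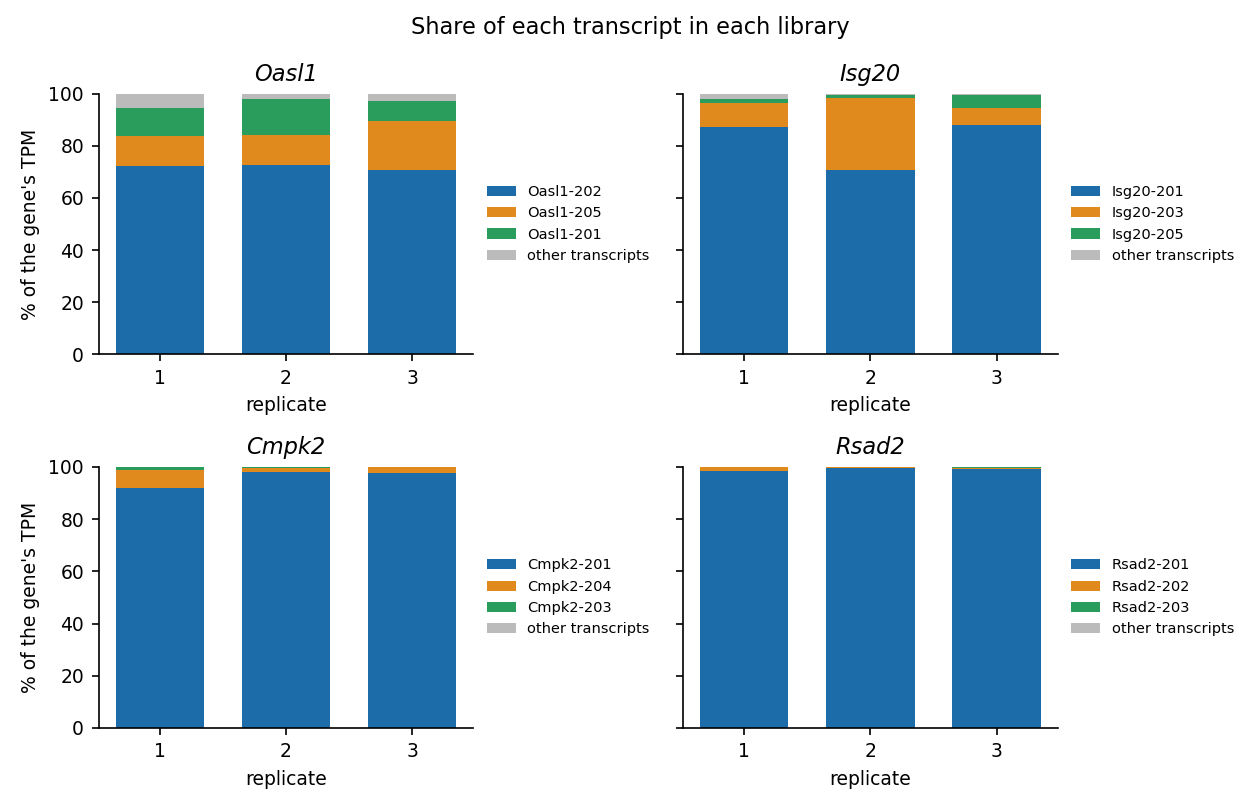
Share of each gene's TPM (%) in its 3 leading transcripts and in the others, by replicate, for the 4 genes with the least TPM in their main transcript. Oasl1-202 is near 72% in each library, Isg20-203 reaches 27.8% in replicate 2, and the Cmpk2 transcripts other than Cmpk2-201 are most visible in replicate 1.

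Overlapping genes contributed little. Gm13822, antisense to the start of Oasl1, stood at 0.47, 0.33 and 0.41 TPM, and Gm44148, which overlaps Usp18, had 2 counts in replicate 2 and 0 in the others. In total the 10 genes took 0.240, 0.231 and 0.128% of all annotated counts in replicates 1, 2 and 3.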

How the data were processed

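Each library came with 3 tables, all deposited by the authors. Per the file headers, 1 table per gene and 1 per transcript give expected counts, TPM and bounds of a TPM credibility interval (read as a signal of no stated level), and the transcript table adds the percent of its gene's TPM, under RSEM column names. A further transcript table has deposited estimated counts and TPM under kallisto column names (called kallisto-style). Coordinates are mm10 (GENCODE M21), per the labels and the deposited tables. Not given in the sources used here were the aligner, the quantifier versions and the strand setting. Rows that are not annotated genes (0.260, 0.0933 and 0.0577% of counts) were left out.

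Levels were tested with limma 3.58.1 (treat, intercept only, band of 1 on log2, trended prior, Benjamini-Hochberg over 9123 genes, pseudocount 0.1). BCV came from edgeR 4.0.16 on rounded expected counts with TMM factors of 1.029, 0.954 and 1.019 and filterByExpr (13026 genes), and DESeq2 1.42.0 was the alternative. The scripts were tested on simulated data. Named pathway genes are the 3 highest by mean TPM of each list, Ifnb1 and every gene called below the median gene; genes of similar pattern are the 5 nearest, and genes lying between members are also named. Of these, 2 genes are not reported here. Oasl2 and Cxcl10 are drawn beside Ifnb1. The members and lists were chosen with earlier results of these data known. Gm14446 of the IFIT paralog list was not matched, and Mx2 and Oas1b are not annotated as protein-coding. Promoter sequences are from RefSeq (GRCm38.p6).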

Additional observations from a re-analysis of the deposited data

How the results depend on the processing

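Rsad2, Ifit2, Isg15 and Ifit3 stayed above the median gene under all 8 alternatives run, and the count of the 10 genes above ran from 4 (median over genes of at least 5 TPM) to 9 (no minimum), with 5 in the kallisto-style tables and 5 to 7 without 1 replicate. The minimum moves the median gene itself: with none, 4986 genes were above and 5463 below of 14388 tested, and at 5 TPM 1254 and 491 of 5620. The kallisto-style tables gave 1862 above and 1427 below of 7720. Ifit1 was not called at 5 TPM (level 1.37), and Isg20, with a mean of 3.10 TPM, was not tested there. Levels that were not called changed sign: Ifit3b to -0.11 (kallisto-style) and -0.60 (5 TPM), Usp18 to -0.07 and -0.57, and Isg20 to 0.17 with no minimum. Pathway genes above numbered 51 with no minimum and 16 at 5 TPM, from different sets of genes tested. Those below numbered 0 at 5 TPM, where Ifit1bl1 and Socs1 (means of 1.87 and 1.25 TPM) were not tested. Pathway genes below numbered 4 with TPM rescaled to the sum of protein-coding genes of the nuclear genome. That setting tested 10516 genes in all, against 9123 in the main one. Without 1 replicate, 3 to 7 neighbouring pairs met the rule, Ifit3 exceeded Ifit3b by 2.77 to 2.81, and the median BCV of the 10 genes was 0.116 to 0.217. With no filter beyond 1 count that median was 0.206, below the 0.285 of all genes. With a pseudocount of 1 Ifit3 exceeded Ifit3b by 2.67. The median difference of replicate 3 was -0.73 to -0.78 under 3 alternatives added after the values were seen. No paired analysis was possible because there is 1 group. Isg20, with 284 to 350 estimated counts per library, is the gene whose transcript shares are least certain.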

Other observations

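Other interferon-stimulated genes differed among themselves in how far replicate 3 stood from the other libraries; the genes in this paragraph were chosen after their values were seen. The guanylate-binding protein gene Gbp5 stood at 49.5, 30.8 and 14.0 TPM, 1.41 log2 units lower in replicate 3 by TMM CPM, and its relatives Gbp3 and Gbp2 were 0.85 and 0.67 lower. The RNA sensor gene Ifih1 was 0.74 lower, at 26.7, 14.2 and 10.2 TPM, while the sensor genes Ddx58 and Dhx58 were 0.21 and 0.17 lower. Of 64 pathway genes, 50 were lowest in replicate 3 and 3 were at least 2-fold lower there (Ifnb1, Cxcl10 and Gbp5), beside 33.9% and 0.729% of all genes fitted. These are values of 1 library against 2 and were not tested.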
